A study of Drosophila melanogaster with 3 samples.

Results

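The genes described are the protein-coding nuclear genes of oxidative phosphorylation in Drosophila melanogaster whose symbol begins with ND-, Sdh, UQCR-, COX or ATPsyn, which took 88 of the 13945 protein-coding genes on the 6 chromosome arms. They comprise 40 genes of complex I, 7 of complex II, 9 of complex III, 16 of complex IV and 15 of complex V, with Sdhaf3 as the 1 assembly factor. The rule uses the symbol alone, although the gene set was proposed with earlier results of these data known. Binding was measured by chromatin immunoprecipitation and sequencing (ChIP-seq) with an antibody to GFP in a transgenic line that stably carries Sp1 with GFP at its C terminus. The material was whole wandering larvae of the third instar, males and females pooled, of unknown age, as 3 biological replicates of this 1 line and no second genotype or treatment. All tissues were mixed, so a peak cannot be assigned to a tissue and no marker check of a cell type was possible. The 3 replicates are separate biosamples per the labels, and p-values below measure the spread between them.

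A gene counted as having a promoter peak when a peak's summit, its point of highest signal, lay within 500 bp of any annotated transcription start site (TSS). Peaks came from the list called on the pooled replicates, from the list of each replicate, each of 30000 peaks, and from the optimal set of 8001 peaks that passed the irreproducible discovery rate, a filter on agreement between replicates. Those were the 8001 strongest pooled peaks, down to a signal of 220.4. Signal is the peak caller's own enrichment value against the control, with no unit and no stated scaling between lists. Where a gene's signals are compared between replicates, a difference of scale between the lists can be part of the result. To give the replicates equal weight, the 8001 strongest peaks of each were used besides its whole list. Replicate 3 stood apart, in that its strongest peaks marked the promoters of 23.7% of all genes, against 30.2% in replicate 1 and 29.4% in replicate 2.

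Complexes I to IV form the respiratory chain of the inner mitochondrial membrane, which passes electrons to oxygen and pumps protons, and complex V, the ATP synthase, uses the proton gradient to make ATP. Most of their subunits are encoded in the nucleus and must be made in matched amounts. Many of these genes have a second, similar copy in Drosophila, named after the parent gene with a final L, and many such copies are known to be expressed mainly in testis. Sp1, one of the Sp/KLF family, binds DNA through zinc fingers and acts in leg development in the fly. In mammals, factors of this family bind GC-rich boxes in the promoters of broadly expressed genes, some nuclear respiratory genes among them.

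Sp1-GFP peaks lay at the promoters of 23 of the 88 genes in the optimal set, a share of 26.1% (Wilson 95% interval 18.1 to 36.2%, for the counting of genes only), beside 27.8% of all protein-coding genes. The strongest was at ND-ASHI, a subunit of complex I, with a signal of 2410, and the next were ND-MWFE, ND-42 and ND-SGDH of the same complex and ATPsynC of complex V. In the pooled list 42 of the 88 had a promoter peak, 47.7%, beside 42.6% of all genes. Among the 8001 strongest peaks, 26 members were marked in replicate 1, 28 in replicate 2 and 17 in replicate 3. These are 29.5, 31.8 and 19.3% of the members, beside 30.2, 29.4 and 23.7% of all genes. The members' share averaged 26.9 ± 6.66% and that of the other genes 27.8 ± 3.55% (SD, n = 3). The difference of −0.868 ± 3.40 percentage points did not exceed the spread between replicates (exact two-sided sign-flip permutation test, p = 0.75, where 0.25 is the smallest p that 3 replicates allow), and without replicate 3 it was 0.881. Strongest peaks of all 3 replicates marked 14 members, 15.9%, beside 18.1% of all genes.

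The members divided by whether the symbol marks a copy. Of the 25 symbols that end in L, or in L and a digit, 2 had a promoter peak in the optimal set, ND-MNLL and COX7AL2, and the other 23 had none in the whole list of any replicate. ND-MNLL owes its place among them to its last letter alone, since MNLL is the name of a subunit (NDUFB1 in mammals) and not of a copy. Without it, 1 of 24 copies had a peak. The 25 are called duplicates below, as the symbol rule takes them. Of the 63 genes that are not duplicates by this rule, 21 had an optimal promoter peak, 33.3%, and 40 a pooled one, 63.5%; with ND-MNLL among them the counts were 22 and 41 of 64. Whole lists gave peaks at 48, 50 and 28 of the 63 in replicates 1, 2 and 3, which is 76.2, 79.4 and 44.4%, beside 49.4, 48.5 and 38.4% of all genes. A peak in at least 1 replicate's whole list was found at 56 of the 63, 88.9%, beside 57.7% of all genes. Most of these promoters therefore held a peak in some replicate, and fewer held one that passed into the optimal set.

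Among the strongest peaks the duplicates' share was 8% in each replicate, against 38.1, 41.3 and 23.8% of the other members. The difference was −30.1, −33.3 and −15.8 points, with a mean of −26.4 ± 9.30 (SD, n = 3), negative in 3 of 3 replicates (exact sign-flip permutation test, p = 0.25, the smallest p possible). Counting ND-MNLL among the other members gave −31.2 ± 9.16 points, and leaving out replicate 3 gave −31.7. The 63 genes that are not duplicates exceeded all genes outside the list by 7.89, 11.9 and 0.125 points, a mean of 6.63 ± 5.97 (exact permutation p = 0.25). The direction was shared by all 3 replicates, but in replicate 3 the difference was close to 0. The 2 classes also differed in annotation: the duplicates had 1.2 TSSs per gene and the other members 1.56, against 1.41 for genes outside the list, and the part of this in the result was not tested.

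**Figure D1:**
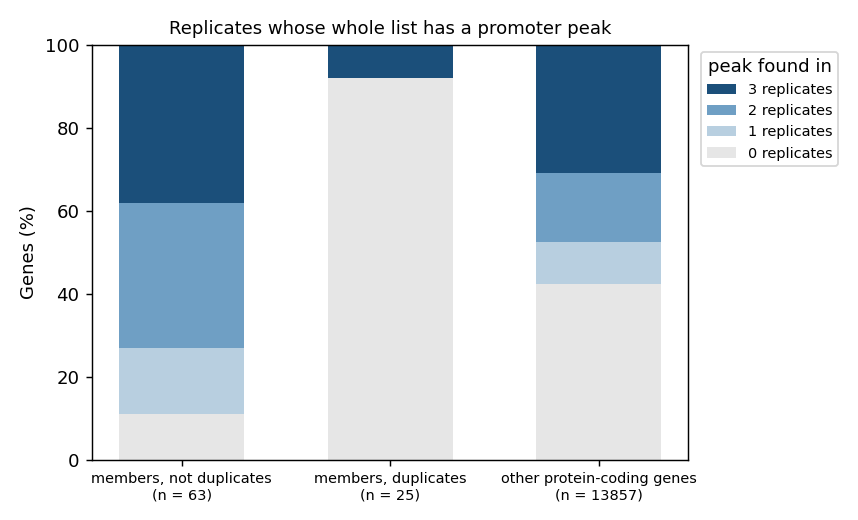
Share of genes (%, vertical axis) by the number of replicates, 0 to 3, whose whole list has a promoter peak at the gene, for members that are not duplicates (n = 63), duplicates (n = 25) and all other protein-coding genes (n = 13857). A peak in no replicate was found for 11.1% of the members that are not duplicates, 92% of the duplicates and 42.3% of the other genes.

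By complex, and leaving aside the 25 symbols of the copy rule, optimal promoter peaks were found at 8 of 33 genes of complex I (9 of 34 with ND-MNLL), 2 of 4 of complex II, 2 of 6 of complex III, 4 of 8 of complex IV and 5 of 11 of complex V, where 27.8% of all genes had one. In at least 1 whole list the counts were 28 of 33, 4 of 4, 6 of 6, 7 of 8 and 11 of 11. Sdhaf3, which helps to assemble succinate dehydrogenase, had no peak in any list. With so few genes in complexes II to IV, the shares do not order the complexes.

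Complex I (NADH dehydrogenase) held the strongest peaks. ND-ASHI, an accessory subunit of its membrane arm, had a pooled signal of 2410, rank 285 of the pooled list, with signals of 904, 759 and 738 in replicates 1, 2 and 3 (mean 800.2 ± 90.3). ND-MWFE, a small membrane-arm subunit, had 1200 in the pool and 338, 284 and 565 in the replicates, the highest in replicate 3. ND-42, the fly counterpart of NDUFA10, had 896 in the pool and 304, 273 and 304 in the replicates, a spread of 6.08% of its mean. The replicates lay within a narrow range at ND-ASHI and ND-42 and farther apart at ND-MWFE. ND-SGDH had 776 in the pool and 316, 179 and 298 in the replicates. ND-MNLL had 498 in the pool and 202, 131 and 134 in the replicates, so the subunit that the symbol rule placed with the copies was marked in all 3.

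The 7 core subunits of complex I encoded in the nucleus carry its flavin and iron-sulfur chemistry, and this group was chosen after its values were seen. Among them, ND-51, which binds NADH, had 579 in the pool and an even 201, 202 and 183 in the replicates. ND-24, its iron-sulfur partner, had 585 in the pool and 224 and 199 in replicates 1 and 2, and no peak in replicate 3. The remaining 5 had no optimal peak. ND-75 had a pooled signal of 84.9 and 36.1, 37.7 and 36.7 in the replicates, low and alike. ND-20 was listed in replicates 1 and 2 alone (78.9 and 65.2), ND-23 in replicate 3 alone (165.6), ND-30 in replicate 2 alone (83.7), and ND-49, on chromosome 4, in none.

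At the weak end of complex I, ND-B22 had 307 in the pool and 116, 159 and 36.5 in the replicates, the spread being 59.9% of the mean, next to the widest among members with an optimal peak and a peak in every replicate. ND-B18 had 263 in the pool, 81.7 and 118 in replicates 1 and 2, and no peak in replicate 3. ND-B17.2, with 186 in the pool, was just too weak for the optimal set and had 40.1, 74.4 and 72.1 in the replicates. The 10 other genes of this complex with a pooled but no optimal peak, none of them a duplicate, had pooled signals between 42.9 and 167, the highest at ND-13B. ND-13A and ND-19 had no peak in any list.

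Complex II (succinate dehydrogenase) also works in the citrate cycle. SdhC, a membrane anchor, had 581 in the pool and 207, 228 and 157 in the replicates, which do not stand far apart. SdhD, the other anchor, had 319 in the pool and 151, 177 and 20.9 in the replicates, the widest relative spread of the 18 genes with an optimal peak and a peak in every replicate (71.9% of the mean), with replicate 3 the low value. SdhA, the flavoprotein, had no optimal peak, 90.3 in the pool and 82.9, 30 and 35.4 in the replicates. SdhB, the iron-sulfur subunit, was listed in replicate 3 alone, at 32.4, and the copy SdhAL in none. In the pool and in replicates 1 and 2 both anchors exceeded the catalytic pair, while in replicate 3 SdhD lay below both SdhA and SdhB.

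Complex III (the cytochrome bc1 complex) passes electrons to cytochrome c. UQCR-14 had 297 in the pool, 111 and 71.6 in replicates 1 and 2 and no peak in replicate 3. UQCR-C2, a core protein, had 251 in the pool, the lowest of the 23, and 128, 95.2 and 30.2 in the replicates. Its partner UQCR-C1 had no optimal peak, 157 in the pool and 67.9, 80.6 and 28.1 in the replicates. At both core proteins replicate 3 was lowest. UQCR-Q had 108 in the pool and no peak in replicate 3, UQCR-11 a peak in replicate 3 alone, at 82.7, and UQCR-11L none.

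Complex IV (cytochrome c oxidase) hands electrons to oxygen. COX7B had 591 in the pool and 198, 220 and 176 in the replicates. COX6B had 468 in the pool and 202 and 188 in replicates 1 and 2, and no peak in replicate 3. COX5A had 396 in the pool and 170, 84.7 and 135 in the replicates. These 3 subunits of the nuclear shell thus differed in replicate 3: COX7B held its level, COX6B was not listed and COX5A lay between its values in replicates 1 and 2. COX7C had 390 in the pool and 106, 195 and 81.3 in the replicates. COX5B reached only 121.2 in the pool, with 28.5, 67.5 and 43.7 in the replicates. COX4, a nuclear-encoded subunit that touches the catalytic core, had no peak in any list, nor had its copy COX4L.

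COX7AL2 was the 1 true copy with a peak, and it went against its parent. It had 552 in the pool and 150, 143 and 288 in the replicates, highest in replicate 3, whereas the parent COX7A had no pooled peak and 86.3 and 94.1 in replicates 1 and 2 and none in replicate 3. The summit at COX7AL2 with that signal lay 497 bp downstream of the nearest TSS, within the gene (2L, bases 2192525 to 2197912). A second, weaker optimal summit of the same interval lay 295 bp from the TSS, well inside the limit. No other gene's promoter shared that peak.

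Complex V has a membrane rotor, a central shaft, catalytic heads and a peripheral stalk. ATPsynC, whose product forms the rotor ring, had 745 in the pool and 247.8, 388.4 and 114.7 in the replicates, a spread of 54.7% of its mean. ATPsynCF6, a stalk subunit, had 378 in the pool and 118, 102 and 160 in the replicates. ATPsynE had 366.4 in the pool and 121.1, 99.2 and 154 in the replicates. ATPsynC was thus lowest in replicate 3, and ATPsynCF6 and ATPsynE were highest there. ATPsyngamma, the shaft, had 350 in the pool and 133, 95.4 and 150 in the replicates. ATPsynO, which joins the stalk to the head, had 306 in the pool, 79.4 and 152 in replicates 1 and 2 and no peak in replicate 3. ATPsynF, at 219.6 in the pool, lay just under the weakest optimal peak and had 79.9, 110 and 56.5 in the replicates. ATPsynbeta, the catalytic subunit, is on chromosome 4 and had 42.3 and 164 in replicates 1 and 2 and no pooled or replicate 3 peak. ATPsynB was listed in replicates 1 and 2 alone (72.4 and 141), and the copy ATPsynCF6L in none.

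**Figure D2:**
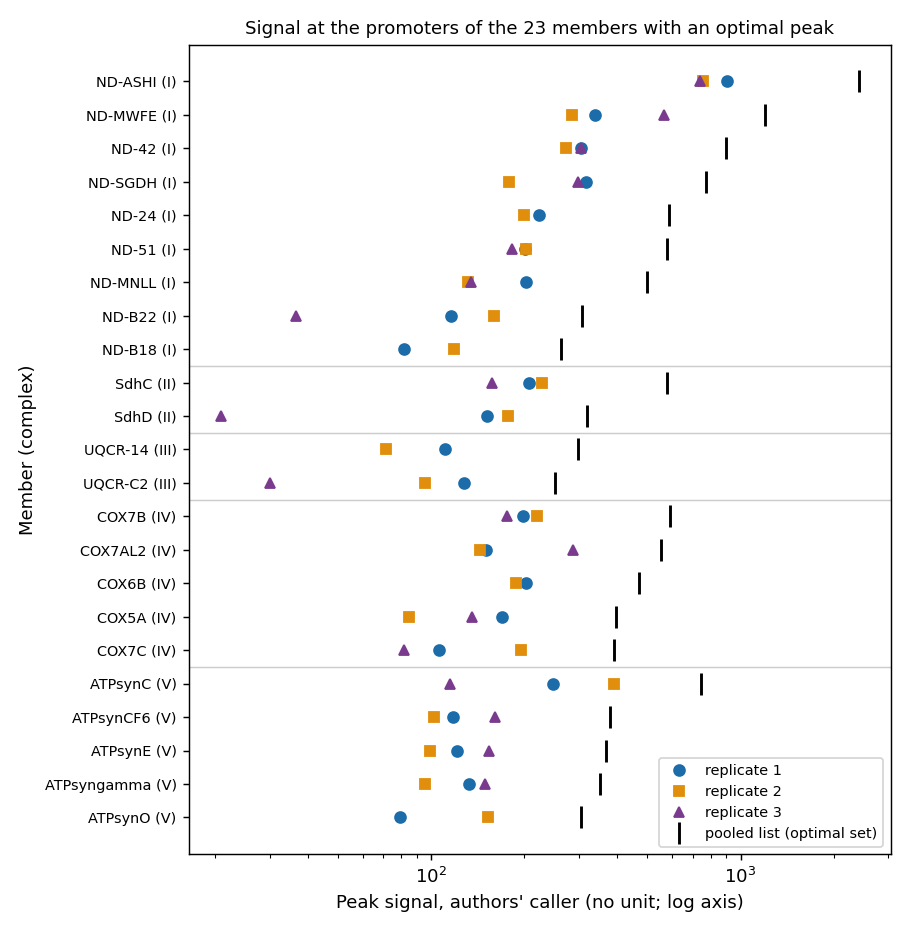
Peak signal (log axis, no unit) at the promoters of the 23 members with an optimal peak, 1 row per gene grouped by complex; colored symbols are the replicates and the black bar the pooled value, with no symbol where a replicate has no peak. Replicate 3 is far below the others at ND-B22, SdhD and UQCR-C2 and absent at ND-24, ND-B18, UQCR-14, COX6B and ATPsynO.

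In signal, the members' optimal promoter peaks had a median of 468 over 23 genes (251 to 2410), against 484 over 3850 other genes. Within the strongest peaks of each replicate, the log2 ratio of the members' median to that of other genes was −0.10, −0.06 and −0.29, a mean of −0.15 ± 0.12 (SD, n = 3), negative in 3 of 3 (exact permutation p = 0.25). Without replicate 3 the mean was −0.08, and with promoters of 1000 bp it was −0.05 (exact permutation p = 0.75), no longer negative in every replicate.

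Where the summit lay went along with the replicates. Of the 23 peaks, 10 had their summit within 60 bp of the nearest TSS, 10 lay 61 to 500 bp upstream and 3 lay downstream. Each gene was placed by its strongest summit. ND-ASHI, placed upstream at 256 bp, also had a weaker optimal summit 20 bp from a TSS. The division at 60 bp was made after the values were seen, and the pooled summit comes from the same replicates, so the following is a description. Of the 10 near the TSS, 4 had no peak in replicate 3 (ND-B18, UQCR-14, COX6B and ATPsynO), and at the other 6 the ratio of replicate 3 to the mean of replicates 1 and 2 had a median of 0.316, with ATPsynE highest at 1.40 and SdhD lowest at 0.127. All 10 of the upstream group had a peak in replicate 3, with ratios between 0.722 and 1.81 and a median of 0.980. Over all genes the same contrast was smaller: 19.1% of those with a summit within 60 bp lacked a replicate 3 peak and the median ratio was 0.789, against 10.8% and 1.09 for upstream summits. Near summits were also more frequent among the members, 43.5% against 25.6% of all genes with an optimal peak. They had weaker signals in replicates 1 and 2 as well, with members' medians of 124 and 135 against 205 and 211 upstream. Over all genes the medians were 144 and 151 against 204 and 187. ND-B18, UQCR-14 and COX6B are on the X. So is ND-24, which had its summit 108 bp downstream and also no peak in replicate 3. On the X, whole lists of replicates 1, 2 and 3 marked 11, 11 and 2 of the 11 members that are not duplicates. For all genes of the X these were 59.2, 55.3 and 39.0%. The part of signal and chromosome in the contrast was not tested.

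**Figure D3:**
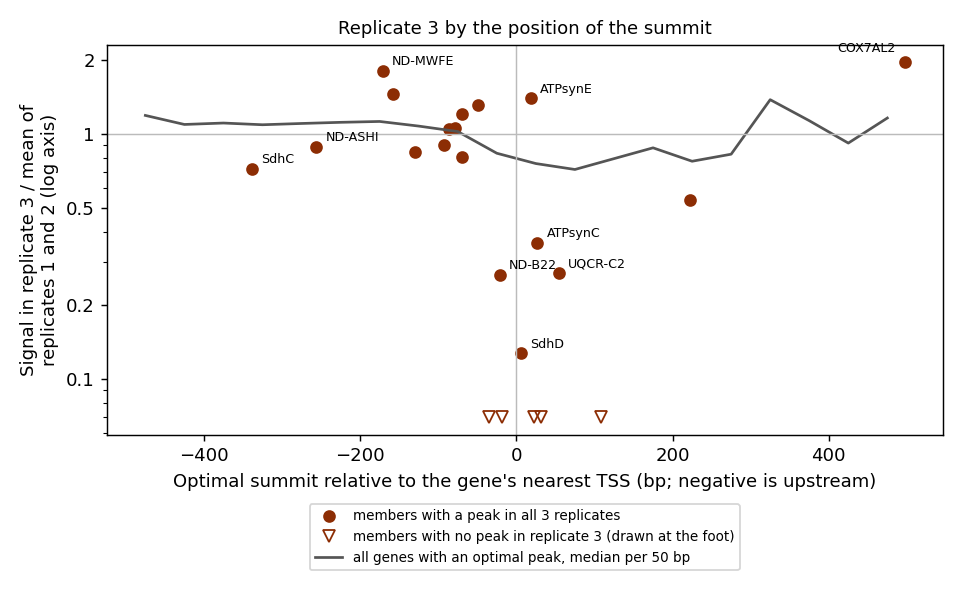
Ratio of the replicate 3 signal to the mean of replicates 1 and 2 (log axis) against the distance of the optimal summit to the gene's nearest TSS (bp, negative upstream) for the members; triangles at the foot are members with no replicate 3 peak and the line is the median of all genes per 50 bp. Members at upstream summits lie near 1, and those at the TSS lie mostly below 0.5 or at the foot.

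Many of these peaks lay near a TSS of another gene as well. Whether a summit lay between the genes was not examined, and some lay within the member gene, as at COX7C and COX5A. At 16 of the 23 members (69.6%) the optimal peak was also within 500 bp of a TSS of another protein-coding gene, beside 51.7% of all genes with an optimal peak. It was so for 10 of 10 members with an upstream summit and 4 of 10 with a summit near the TSS, against 60.5 and 41.0% of all genes of those classes. The peak at ND-ASHI was shared with Fum1, the fumarase of the citrate cycle, and that at ND-42 with Cchl, which attaches heme to cytochrome c. The peak at SdhC was shared with Tctp, that at COX7B with the exocyst gene Sec3, that at ATPsynCF6 with Sec13, a coat protein of secretory vesicles, and that at COX6B with 3 genes, CG18809, CG33932 and Rpp20. Peaks at ND-B22, SdhD, UQCR-14, UQCR-C2, COX7AL2, ATPsynC and ATPsynO touched no other gene's promoter. Which gene of a pair such a peak acts on cannot be told from these lists.

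The sequence under 3 of these peaks is shown because they are the strongest peak, a strong peak without any searched word, and a peak with a searched word close to its summit. Sequence is that of the Release 6 reference genome, in dm6 coordinates, cut to bases outside annotated exons and read along the gene's strand. At ND-ASHI it is chrX:6679254-6679494, minus strand, with the word GGGTGG in capitals; at ND-42 chr3R:22027503-22027708, plus strand; at SdhC chr3R:11210067-11210246, minus strand, with the word TATCGATA in capitals.
ND-ASHI: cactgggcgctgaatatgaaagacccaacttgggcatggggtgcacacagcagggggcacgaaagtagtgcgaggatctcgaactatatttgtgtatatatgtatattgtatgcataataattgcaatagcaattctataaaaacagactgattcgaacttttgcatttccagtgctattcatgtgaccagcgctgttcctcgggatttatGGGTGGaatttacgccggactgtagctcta
ND-42: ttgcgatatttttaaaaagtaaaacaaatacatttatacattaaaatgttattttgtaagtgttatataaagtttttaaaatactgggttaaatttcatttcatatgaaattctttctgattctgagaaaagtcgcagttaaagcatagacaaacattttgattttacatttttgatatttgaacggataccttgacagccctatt
SdhC: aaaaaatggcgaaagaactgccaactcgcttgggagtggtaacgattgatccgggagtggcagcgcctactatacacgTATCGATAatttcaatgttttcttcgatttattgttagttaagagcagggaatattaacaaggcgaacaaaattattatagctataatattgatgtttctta

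In the ND-42 stretch, which is rich in A and T, none of the 9 words searched was found. These were GGGCGG, the GC box of the Sp/KLF family, GGGTGG and GGGTGTG, its CACC-type boxes, TATCGATA, the element of the factor DREF, GGTCACAC, the core of the element bound by the factor M1BP, and CACGTG, the E-box. The others were TTACGTAA and TTACATAA, forms of a palindrome described at Drosophila respiratory genes, and GAGAGAG, the site of the GAGA factor. Each was searched on both strands in the window of 250 bases before to 50 after each gene's outermost start, and none of the words contains another. Of the boxes of Sp1's own family, GGGCGG was found at 4.55% of members and 5.97% of all genes, GGGTGG at 3.41 and 8.04%, and GGGTGTG at 2.27 and 1.86%. CACGTG was found at 4.55% of members and 4.20% of all genes, TTACATAA at 2.27 and 2.15%, TATCGATA at 10.2 and 9.36%, and GAGAGAG at 1.14 and 5.87%. TTACGTAA was found at none of the 88 and at 0.452% of all genes. The windows of the members held 35.0 ± 6.44% G and C, against 39.1 ± 7.74% over all genes (SD over genes), and the part of this in the counts of words was not tested.

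The word GGTCACAC was found at 16 of the 88 members, 18.2%, against 7.70% of all genes. All but 1 of those were among the 63 genes that are not duplicates (23.8%). Among those 63, it was held by 4 of 21 genes with an optimal peak, 19.0%, and 11 of 42 without, 26.2%, while among all genes the shares were 12.2% with and 5.99% without an optimal peak. Whether the members differ in this from other genes was not tested. Near the summits it was rare, with a match within 100 bp of 1 of the members' 23 summits, at UQCR-C2, 4.35% against 5.60% of the 2873 optimal promoter peaks. Sites of 30 bases with the word in capitals are shown for 8 members, chosen because the word in their promoter window begins within 60 bp of a start; in COX4, ATPsynD and ATPsynC it begins farther off, 62, 105 and 166 bp upstream. They are read along the word, and the distance is that of the word from the nearest start. The site of ND-PDSW is chr2L:3466119-3466148, minus strand, 27 bp upstream. That of ND-13A is chr2L:5100261-5100290, plus strand, 9 bp downstream. That of COX5B is chr2L:6557801-6557830, plus strand, 12 bp downstream. That of ND-B17 is chr2L:15751075-15751104, minus strand, 15 bp upstream. That of ND-ACP is chr3L:1329971-1330000, plus strand, 33 bp downstream. The site of COX7B is chr3L:17425475-17425504, plus strand, 9 bp downstream. The site of COX5A is chr3R:11819313-11819342, minus strand, 35 bp upstream. The site of ND-18 is chrX:19492407-19492436, plus strand, 3 bp upstream.
ND-PDSW: ttcgaggtagtGGTCACACctatgccgcac
ND-13A: taccgatcagcGGTCACACtggttatttaa
COX5B: tactttaccgcGGTCACACtgatccatagc
ND-B17: tttaagagtgcGGTCACACtggcggcaaca
ND-ACP: attgcgcatacGGTCACACtgctaccttgc
COX7B: aacaacacaacGGTCACACtgttcaacaca
COX5A: gatttaattgcGGTCACACtgcatcttcaa
ND-18: accgctcgcctGGTCACACtggcactggcg

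Of these 8 genes, COX7B and COX5A had an optimal peak, and the word lay 142 and 194 bp from the summit. The other members with the word and an optimal peak were ATPsynC and ND-MWFE. ND-13A had no peak in any list.

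Around the summits, 3 other words were met at several members. TATCGATA lay within 100 bp of the summits of SdhC, UQCR-14 and ATPsynE, 3 of 23 or 13.0%, against 6.72% of all optimal promoter peaks. GGGTGG lay near those of ND-ASHI, COX7C and ATPsyngamma, again 13.0%, against 6.33%. TTACGTAA, found near only 14 of all 2873 summits (0.487%), lay near 2 of the members', those of ND-B18 and UQCR-14. These 2 sites are shown, with the palindrome in capitals, because it is so scarce elsewhere: the site of ND-B18 is chrX:15063969-15063998, 82 bp from the summit, and that of UQCR-14 is chrX:16286388-16286417, 83 bp from the summit, both read on the plus strand. With 2 or 3 peaks a word, these are counts without a test.
ND-B18: agaaaaacaatTTACGTAAtttaattgagc
UQCR-14: gacttctgattTTACGTAAaccatgtcgaa

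Set beside other genes that most cells use, the members had a lower share than ribosomal protein genes among the strongest peaks of each of the 3 replicates. Strongest peaks marked 83.2 ± 0.621% of the 93 cytoplasmic ribosomal protein genes and 43.8 ± 4.11% of the 73 mitochondrial ones (SD, n = 3). The members lay below the cytoplasmic genes by a mean difference of −56.3 ± 6.28 points and below the mitochondrial genes by −16.9 ± 4.38, in 3 of 3 replicates each (exact permutation p = 0.25 each, the smallest p possible). Without replicate 3 they were −52.7 and −15.2 points. Without duplicates the differences were −48.8 ± 8.92 and −9.44 ± 6.68 points. The gap to the mitochondrial genes depended on the cut. Whole lists of replicates 1, 2 and 3 marked 76.2, 79.4 and 44.4% of the 63 members that are not duplicates. They marked 75.3, 71.2 and 50.7% of the mitochondrial and 87.1, 88.2 and 88.2% of the cytoplasmic ribosomal protein genes. In the pooled list the shares were 63.5, 63.0 and 87.1% in the same order. The annotation of these sets differs too, with 1.45 TSSs per member, 1.70 per cytoplasmic and 1.10 per mitochondrial ribosomal protein gene.

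Genes of respiration whose symbol the rule does not take were marked at 6 of 15 in the optimal set, and in 46.7 ± 11.5% among the strongest peaks. They include the testis form of cytochrome c, Cyt-c-d, with a pooled signal of 1957, the ATP synthase alpha subunit blw at 545, the oxidase subunits cype at 463 and levy at 451, the complex III subunit ox at 367, and porin, the channel of the outer membrane, at 330. The summit at Cyt-c-d lay 379 bp downstream of the nearest TSS. Cyt-c-p, the other cytochrome c gene, had no optimal peak and 188 in the pool. Citrate cycle genes were marked at 7 of 14, with 52.4 ± 4.12% among the strongest peaks. The highest were Idh3g at 3066, Fum1 at 2410, which is the ND-ASHI peak, and mAcon1 at 1105. Genes of mitochondrial DNA upkeep and biogenesis were marked at 2 of 12, clu at 576 and PolG2 at 228, with 25.0 ± 8.33% among the strongest peaks. These lists are of 12 to 15 genes, and their shares stand beside the 27.8% of all genes as counts only.

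**Figure D4:**
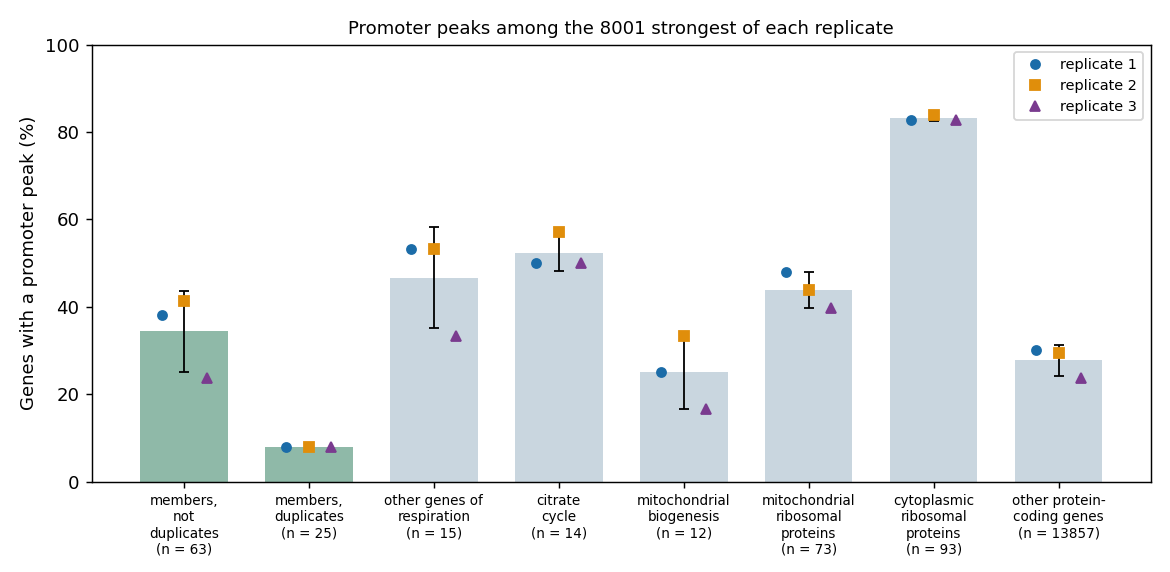
Share of genes (%) with a promoter peak among the 8001 strongest of each replicate, for the members in 2 classes and for the lists they are set beside; symbols are replicates, bars the mean and error bars the SD (n = 3). Duplicates stand at 8% in every replicate, the other members between 23.8 and 41.3%, and cytoplasmic ribosomal protein genes above 80% in every replicate.

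By chromosome arm, of the members that are not duplicates, 9 of 14 on 3R and 5 of 11 on X (6 of 12 with ND-MNLL) had an optimal promoter peak, against 2 of 12 on 2L, 2 of 11 on 2R, 3 of 13 on 3L and 0 of 2 on chromosome 4. Over all genes the shares were 28.1% on 3R, 30.7% on X, 25.3% on 2L, 27.9% on 2R, 27.9% on 3L and 6.25% on 4. On 3R the members' share among the strongest peaks was 64.3, 64.3 and 57.1% in replicates 1, 2 and 3, while all genes of that arm had 29.6, 29.96 and 25.3%. On the X, strongest peaks marked 9.09% of the 11 members in replicate 3, against 45.5% in replicate 1 and 36.4% in replicate 2. All genes of the X had 22.7% in replicate 3, 33.5% in replicate 1 and 30.8% in replicate 2.

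Members without an optimal promoter peak were also placed by their distance to an optimal peak elsewhere. For the 42 that are not duplicates, the nearest optimal summit lay at a median of 4400.5 bp from a TSS, with 9, or 21.4%, within 2000 bp and 23, or 54.8%, within 5000 bp. For the 23 duplicates it lay at a median of 15828 bp, with 5, or 21.7%, within 5000 bp. Of all 10072 genes without an optimal promoter peak, 12.2% had one within 2000 bp and 31.8% within 5000 bp, and the median was 9397 bp. Such a summit may belong to any neighbouring gene.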

How the data were processed

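ChIP-seq peak lists were analysed in dm6 coordinates, per the labels. Aligner, peak caller and version: not given in the sources used here. Per the deposited text descriptions, the authors called each replicate list from its own alignment and 1 control, the pooled list from all 3 alignments and that control, and the optimal set from these lists. The deposited signal is a value of the authors' peak caller against the control, without stated scaling between lists. It was ranked within lists. Means, spreads and ratios over the replicates of a gene compare it between lists as deposited, without rescaling. The deposited −log10 q values, constant p column and score were not used. Library depth is unknown, since no list gives reads, and intervals cover the counting of genes only.

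Gene models were Ensembl 115 (BDGP6.54), with 19607 TSSs, and sequence was Release 6 from NCBI RefSeq. All peak ends lay within its arm lengths. A gene's signal is that of its strongest peak with a summit within 500 bp of any TSS. Members and lists were chosen with earlier results of these data known. Text names, per complex, the 4 members of highest signal and up to 2 without a pooled peak, duplicates with a peak and their parents, the 2 most variable, and 2 on either side of the weakest optimal signal; other members named were added after their values were seen. The gene listed by an older name, Nc73EF, was matched as Ogdh. The only test was an exact two-sided sign-flip permutation over 3 replicate values; with a smallest p of 0.25 it cannot pass 0.05. The peak assignment was tested on simulated data. Computations used scipy 1.17.1, pandas 2.3.3 and numpy 2.4.6 in Python 3.11.15, with figures by matplotlib 3.10.9.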

Additional observations from a re-analysis of the deposited data

How the results depend on the processing

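The members' mean share minus that of other genes, −0.868 points, changed sign with a promoter of 200 bp (1.65), with the 5'-most TSS of each gene (0.939), without duplicates (6.63) and with the replicate lists in full (4.61), and was −2.51 to 0.881 when each replicate was left out in turn, positive without replicate 3. The difference was lowest without shared peaks, at −7.23 (exact permutation p = 0.25), and highest without duplicates. The setting without shared peaks dropped genes whose peaks were all shared and kept every gene without a peak. In the optimal set, 69.6% of the members with a peak shared it, against 51.7% of all genes with one. That setting is therefore not like for like with the others. In the optimal set the difference ran between −6.45 without shared peaks and 5.55 without duplicates. The duplicates' difference kept its sign in every setting tried, between −58.7 with the lists in full and −23.0 without replicate 2, and was −31.7 to −23.0 with each replicate left out. Differences to ribosomal protein genes were −58.4 to −52.7 (cytoplasmic) and −19.4 to −15.2 (mitochondrial) with each replicate left out, and the log2 signal ratio −0.20 to −0.08. That ratio was −0.08 with promoters of 200 bp, −0.05 with 1000 bp (exact permutation p = 0.75, against 0.25) and −0.23 with the lists in full. For words, taking 100 bp around the summits changed both the window and the sets (23 member peaks against 2873 optimal promoter peaks, in place of 88 members against all genes), and the members' excess over the background was 6.71 points for GGGTGG (−4.63), −1.26 for GGTCACAC (10.5) and 8.21 for TTACGTAA (−0.45). The cause of these shifts was not tested. No paired analysis was possible because there is 1 group of samples and so no second group to block; the differences above are taken within each replicate. With 3 replicates no test could reach 0.05, and the unknown depth of each library limits what weak peaks can show: a promoter without a listed peak is not shown to be unbound.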
